A study of Mus musculus with 20 samples.

Results

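The 10 genes described here are the lectican proteoglycans Acan, Bcan, Ncan and Vcan, the link proteins Hapln1, Hapln2 and Hapln4, the tenascins Tnr and Tnc, and the receptor phosphatase Ptprz1. They were picked by symbol from a table of 48709 genes, and all 10 were among the 19797 genes that passed the filter on low counts. Bcan was known beforehand as a gene the study named, out of its exposure results in these same libraries, for an association with a metabolic phenotype that is not analysed here. Its differences between exposed and control mice are therefore given as a description with no test, and the other 9 members were tested.

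RNA of the right hippocampus was sequenced from 20 young adult C57BL/6 mice (C57BL/6J in the study's methods), 5 in each of 4 groups: control females (Ct_F), control males (Ct_M), nPM females (nPM_F) and nPM males (nPM_M). Dams of the nPM groups breathed nano-sized particulate matter collected from urban air, and control dams breathed filtered air, for 5 hours a day on 3 days a week from gestational day 2 until birth. The labels give the dose as 300 mg/m3, and the study's methods give the same figure in µg/m3. Exposure ended at birth, the labels give no genotype beyond the strain for any group, and the females were 17.71 to 18.29 weeks old and the males 18.57 to 19.14 weeks old. Age and sex cannot be told apart, because these ranges do not meet. The study's methods describe injections of EdU into male mice before tissue collection, for its measure of neurogenesis, and none into females. Sex and these injections cannot be told apart either. The offspring came from 5 litters per exposure, and the labels do not tie a library to its litter, so the p-values measure the spread between libraries, some of which may be litter-mates.

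Total counts were between 19092067 and 38663408 per library, and the members had between 107 and 15894 counts in a library, so none of them was near the limit of detection. Xist had at least 15466 counts in every female and at most 59 in every male, and Ddx3y had at most 7 counts in females and at least 3435 in males, as the labels of sex imply. The defining markers of hippocampal excitatory neurons, among them Neurod6 and Prox1, were present in every group, with a summed level of 502 to 755 CPM (counts scaled to the size of the library) per library. Library nPM_F4 stood apart, with the fewest counts and the lowest GC score, -0.58 against -0.41 to 0.35 in the other 19 libraries. The GC score was computed over genes with a mean above 3 log2 CPM, each taken relative to its mean over the 20 libraries. It is the mean log2 level of the 20% of these genes richest in G and C minus that of the 20% poorest in them. Markers of the choroid plexus, led by Ttr and Enpp2, summed to between 265 and 14146 CPM, so the dissections held very different amounts of this neighbouring tissue. In library nPM_F1 the markers of the striatum summed to 636 CPM, against 154 to 217 CPM in the other libraries. Markers of the thalamus summed to between 101 CPM (Ct_F5) and 260 CPM (nPM_M1). Those of the neocortex summed to between 157 CPM (nPM_F1) and 369 CPM (Ct_F1).

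Perineuronal nets are sheets of extracellular matrix that wrap the cell bodies and proximal dendrites of certain neurons, above all parvalbumin interneurons, and in the hippocampus also the pyramidal neurons of field CA2. In the net, lecticans bind long hyaluronan chains at one end with the help of a link protein and bind tenascin-R at the other. Lecticans carry chondroitin sulfate chains, which are read by receptors such as the phosphatase encoded by Ptprz1, and nets are known for restraining plasticity as circuits mature.

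Here are shown the sequences just before the start of the 4 lectican genes. They were chosen because Acan, Ncan and Vcan were lower in males at p under 0.005 by limma-voom. Bcan, also lower in males but not past that limit, is the gene the study named. Each sequence is the 250 bases before the start of transcription in RefSeq (GRCm38.p6), 5′ to 3′ on the strand of the gene. Capitals mark the GC box GGGCGG and the TATA box TATAAA, on either strand.
Acan (chr7:79052976-79053225, plus strand): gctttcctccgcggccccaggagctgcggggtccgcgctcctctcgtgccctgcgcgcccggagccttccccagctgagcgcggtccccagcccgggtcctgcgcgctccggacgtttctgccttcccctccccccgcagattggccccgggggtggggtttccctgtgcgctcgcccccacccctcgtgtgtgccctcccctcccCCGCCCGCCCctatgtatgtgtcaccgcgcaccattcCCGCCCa
Bcan (chr3:88000357-88000606, minus strand): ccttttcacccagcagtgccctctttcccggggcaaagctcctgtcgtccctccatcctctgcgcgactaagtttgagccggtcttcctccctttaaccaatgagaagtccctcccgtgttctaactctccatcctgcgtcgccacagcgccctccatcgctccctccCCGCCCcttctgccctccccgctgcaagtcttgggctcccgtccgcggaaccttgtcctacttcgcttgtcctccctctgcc
Ncan (chr8:70120845-70121094, minus strand): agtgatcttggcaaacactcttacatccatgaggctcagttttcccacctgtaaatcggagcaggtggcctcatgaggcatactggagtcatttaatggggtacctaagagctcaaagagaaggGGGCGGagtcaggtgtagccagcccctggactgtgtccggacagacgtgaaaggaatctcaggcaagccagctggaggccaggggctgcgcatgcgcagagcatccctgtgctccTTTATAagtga
Vcan (chr13:89742513-89742762, minus strand): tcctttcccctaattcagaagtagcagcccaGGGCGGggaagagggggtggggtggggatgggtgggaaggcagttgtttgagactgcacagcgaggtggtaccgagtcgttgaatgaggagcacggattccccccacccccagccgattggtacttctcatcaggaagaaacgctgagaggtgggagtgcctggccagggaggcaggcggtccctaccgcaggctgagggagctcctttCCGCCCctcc
All 4 windows held a GC box, which 32.7% of 32851 windows of this length over RefSeq genes also held. Acan had 3 of these boxes, of which 2 share letters in one run, and Vcan had 2. The Ncan window was the only one of the 4 with a TATA box, read on the opposite strand 11 bases before the start, and 12.4% of all windows held one. The Acan window had 26 CG dinucleotides, Bcan 16, Vcan 10 and Ncan 6, against a median of 6 over all windows. Of the 9 members with an entry in the table, GC boxes were also in the windows of Tnc and Ptprz1, and each Tnc window held a TATA box as well. The windows of Hapln1, Hapln2 and Tnr held neither motif. Hapln4 was not matched.

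On the scale of RPKM (reads per kilobase of gene, scaled to the size of the library), which allows levels to be set side by side between genes, the members spanned a wide range. Bcan, a brain lectican made mainly by glia, was the most abundant at 30.8 ± 6.01 RPKM (mean ± SD, n = 20). It was followed by Ptprz1 at 27.4 ± 1.97, Ncan at 25.4 ± 4.37 and Tnr at 19.7 ± 3.13 RPKM. Below a clear gap came the link proteins Hapln4 (8.32 ± 1.59 RPKM), Hapln1 (6.58 ± 1.02) and Hapln2 (5.88 ± 1.35), then Vcan (3.94 ± 0.482), Acan (1.45 ± 0.420) and Tnc (0.926 ± 0.323). Among the 19797 genes tested, Bcan ranked 1360 by mean RPKM and Tnc 14533.

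The ranges of neighbours in this order were apart at 2 steps. Tnr was above Hapln4, and Vcan above Acan, in 20 of 20 libraries with no overlap between the ranges. Bcan exceeded Ptprz1 in 15 of 20 libraries, Ptprz1 exceeded Ncan in 13, and Hapln1 exceeded Hapln2 in 12, so these neighbours did not differ beyond their spread. Hapln1 was below Hapln2 in all 5 control females. The order of Acan over Tnc held in 16 libraries and was turned in the males Ct_M1, Ct_M2, Ct_M5 and nPM_M1. Within the summed RPKM of the lecticans, Bcan made up 49.8% ± 3.40 (SD, n = 20), Ncan 41.4% ± 2.85, Vcan 6.51% ± 1.09 and Acan 2.34% ± 0.545. The spread over the 20 libraries was smallest for Ptprz1, with a coefficient of variation of 7.17%, and largest for Tnc at 34.9%.

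**Figure D1:**
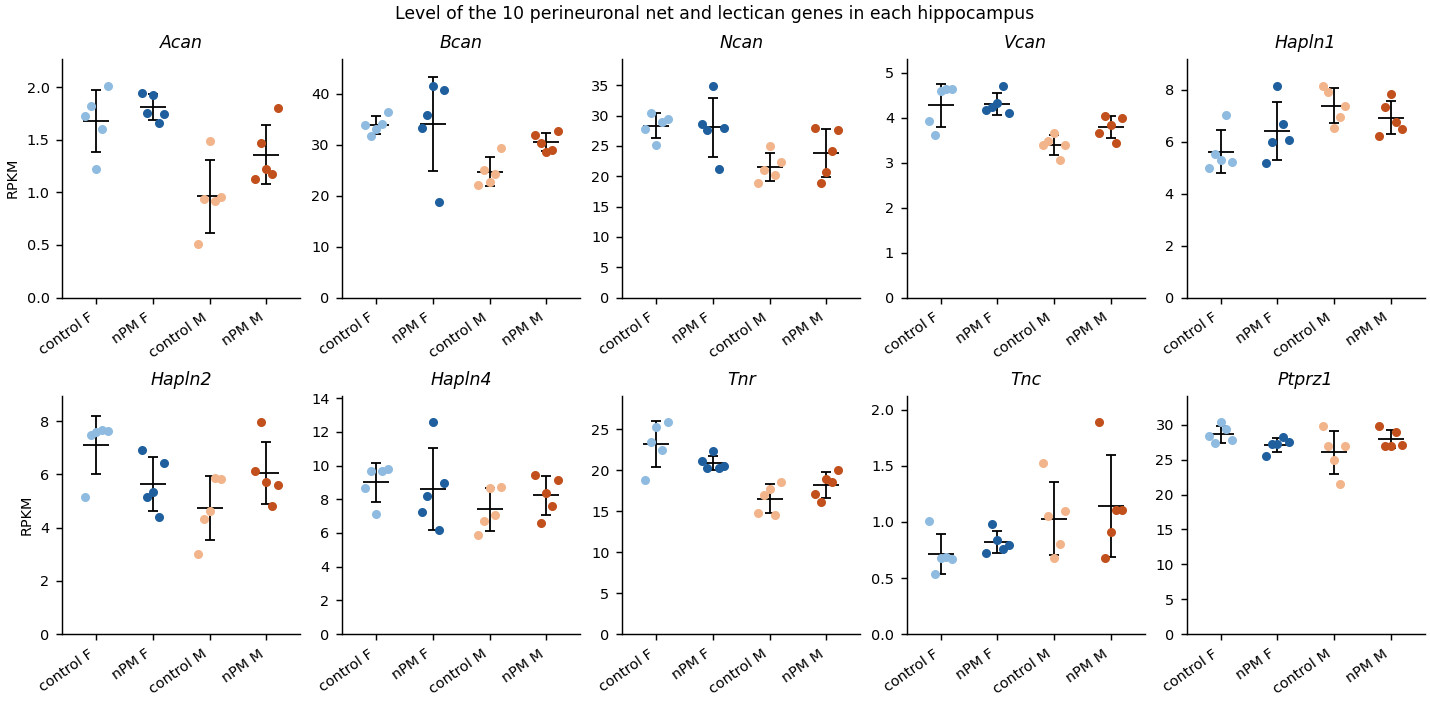
Level of each gene in RPKM (vertical axis, from 0) in each of the 20 libraries, 1 panel a gene and 1 column a group; points are libraries, and bars show the mean and SD of the 5 libraries of a group. Acan, Tnr and Vcan sit lower in most males than in most females, and 1 nPM female (nPM_F4) lies far below the other nPM females for Bcan, at 18.8 RPKM.

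The first question of the design was which genes differ in adults between nPM and control mice. With limma-voom, 0 of the 9 members tested passed p under 0.005 in the model of both sexes with sex as a covariate, where 0.141% of all genes passed. The count was likewise 0 of 9 in females (0.0909% of all genes), in males (0.207%) and for the interaction of sex and exposure (0.217%). edgeR and DESeq2 also gave 0 of 9 in each of these comparisons. At an unadjusted p under 0.05, limma-voom gave Acan in both sexes together (2.1% of all genes) and in males (4.28%), no member in females (1.99%), and Hapln2 for the interaction (3.79%). At the same limit edgeR gave Hapln2 alone for the interaction and no member elsewhere, and DESeq2 gave Acan in both sexes, Hapln2 in females and Hapln2 for the interaction. No gene of the 19797 had an adjusted p under 0.05 in any of these comparisons with limma-voom. The median log2 fold change of the 9 members was 0.03 in both sexes, 0.00 in females and 0.11 in males, against -0.00589, 0.00376 and -0.00132 over all genes tested.

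Acan encodes aggrecan, the lectican most closely tied to the nets themselves. It was at 0.511, 0.942, 1.49, 0.918 and 0.961 RPKM in the control males 1 to 5 and at 1.13, 1.47, 1.22, 1.18 and 1.80 RPKM in the nPM males. In the control females it was at 1.73, 1.82, 1.23, 1.60 and 2.02 RPKM and in the nPM females at 1.95, 1.76, 1.93, 1.66 and 1.75 RPKM. Ct_M1 was the lowest of all libraries, Ct_M3 lay within the range of the nPM males, and the exposure groups overlapped in both sexes. The log2 fold change of nPM over control males was 0.50 (SE 0.22, 95% interval 0.03 to 0.98), with p = 0.0407 and adjusted p = 0.963 by limma-voom and p = 0.0952 by a two-sided exact permutation test over 252 regroupings. In both sexes it was 0.32 (SE 0.13, 95% interval 0.04 to 0.60), with limma-voom p = 0.0255 and an exact permutation p = 0.0387 over 63504 regroupings within sex. Females had 0.18 (95% interval -0.11 to 0.47, exact permutation p = 0.365), and the interaction was 0.34 (95% interval -0.20 to 0.89, exact permutation p = 0.293). With 1 library left out at a time, the male difference was between 0.33 (without Ct_M1) and 0.66 (without Ct_M3), with limma-voom p from 0.00691 to 0.104. In both sexes p ran from 0.0079 to 0.0585 by the same test, so neither stayed under 0.05 in every such fit. Ct_M1 also had the lowest sum of oligodendrocyte markers, 1806 CPM against 2352 to 4243 CPM in the other libraries. Its sums of CA2 markers and of hippocampal excitatory neuron markers were the lowest of all libraries as well. It also had the lowest GC score of the males (-0.41). With the GC score as a covariate the male difference was 0.44. Markers of field CA2, led by Rgs14 and Pcp4, summed to 101 to 161 CPM in control males (median 147) and 141 to 199 CPM in nPM males (median 177). Those of hippocampal excitatory neurons summed to 502 to 634 CPM in control males (median 592) and 565 to 750 CPM in nPM males (median 669). The ranges of both lists overlapped. The part of the oligodendrocyte, CA2 and excitatory neuron lists in the Acan difference was not tested. The summed level of interneuron markers, led by Gad1 and Gad2, was 1042 to 1182 CPM in control males and 953 to 1241 CPM in nPM males, so these ranges overlapped. In bulk tissue, fewer cells of a type and less RNA per cell cannot be told apart.

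Bcan encodes brevican. It was at 22.1, 25.0, 22.6, 24.4 and 29.3 RPKM in the control males and at 31.9, 30.4, 28.6, 28.9 and 32.7 RPKM in the nPM males, given as a description because exposure results chose the gene. Of the control males, Ct_M5 alone reached into the range of the nPM males. The group means were 24.7 ± 2.84 and 30.5 ± 1.79 RPKM (SD, n = 5), a log2 fold change of 0.28. In females Bcan was at 34.0, 31.8, 33.2, 34.2 and 36.4 RPKM in controls and at 33.3, 35.8, 41.6, 18.8 and 40.8 RPKM in nPM mice. The control females were closely grouped, whereas the nPM females held both the highest library of the series and, in nPM_F4, the lowest. The log2 fold change in females was -0.01, with a sign that turned with the method of analysis, and without nPM_F4 it was 0.17. In males the value without 1 library at a time stayed between 0.24 and 0.34. The mean of the nPM males, 30.5 RPKM, lay between those of control males (24.7) and control females (33.9), and their range overlapped that of both groups. Markers of oligodendrocyte precursors, a cell type known to make brevican, summed to 224 to 249 CPM in control males and 238 to 255 CPM in nPM males, and their part in the Bcan difference was not tested.

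Ncan and Vcan encode neurocan and versican, lecticans of the brain matrix that is laid down during development and partly kept in the adult. Their exposure differences were small in comparison with the spread. In males the log2 fold change of nPM over control was 0.11 for Ncan (95% interval -0.14 to 0.35) and 0.13 for Vcan (-0.03 to 0.28). In females it was 0.00 for Ncan (-0.23 to 0.24) and 0.04 for Vcan (-0.17 to 0.25). The intervals leave room for differences of more than 0.2 on the log2 scale in either gene.

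Among the link proteins, which lock lecticans onto hyaluronan, Hapln2 had opposite directions in the sexes. Hapln2 encodes the link protein found at nodes of Ranvier and is known as a product of oligodendrocytes. In females it was at 5.16, 7.49, 7.58, 7.67 and 7.62 RPKM in controls and at 6.91, 5.17, 5.35, 4.40 and 6.42 RPKM in nPM mice. In males it was at 2.99, 4.32, 4.62, 5.87 and 5.85 RPKM in controls and at 6.14, 7.96, 5.72, 4.80 and 5.62 RPKM in nPM mice. All control females except Ct_F1 were above every nPM female, and the male groups overlapped. The log2 fold change was -0.28 in females (95% interval -0.59 to 0.04, limma-voom p = 0.0812, exact permutation p = 0.0714) and 0.30 in males (-0.09 to 0.69, limma-voom p = 0.115, exact permutation p = 0.151). The difference between these effects, male minus female, was 0.60 (SE 0.24, 95% interval 0.09 to 1.10), with limma-voom p = 0.0227, adjusted p = 0.987 and an exact permutation p = 0.0168. This missed the threshold of 0.005, and it passed it when Ct_F1 was left out (0.71) or when the level of choroid plexus markers was a covariate (0.70). Without Ct_F1 the female difference was -0.40 and passed the threshold as well. Leaving out Ct_M1 gave the lowest interaction of the fits without 1 library, 0.46. Over those fits the limma-voom p of the interaction was at most 0.0482.

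The sum of oligodendrocyte markers, led by Mbp and Mobp, had ranges of 2656 to 3305 CPM in control females, 2352 to 3108 in nPM females, 1806 to 3781 in control males and 2813 to 4243 in nPM males. The lowest library of Hapln2, Ct_M1 at 2.99 RPKM, was also the lowest for this sum, and the highest of both was nPM_M2. Other libraries departed from this order. Ct_F2 had a sum of 2656 CPM with Hapln2 at 7.49 RPKM, and Ct_M4 had 3781 CPM with 5.87 RPKM. The part of this list in the Hapln2 result was not tested.

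Hapln1 and Hapln4 are the link proteins most often described in nets. Hapln1 had a log2 fold change of 0.21 in females (95% interval -0.10 to 0.51) and -0.13 in males (-0.32 to 0.07), with an interaction of -0.31 (exact permutation p = 0.0753). Hapln4 had -0.05 in females (-0.40 to 0.31) and 0.12 in males (-0.16 to 0.40). Neither passed a threshold in any exposure comparison.

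Tnr encodes tenascin-R, which cross-links lecticans in the adult brain, and Tnc encodes tenascin-C, which is prominent in development and in reactive astrocytes. For Tnr the log2 fold change was -0.11 in females (95% interval -0.32 to 0.10) and 0.10 in males (-0.09 to 0.30). Tnc had 0.23 in females (-0.12 to 0.58) and 0.11 in males (-0.47 to 0.70), the widest interval of the members in males. Ptprz1 had the narrowest interval in both sexes together, -0.11 to 0.12 around 0.01, and thus the closest bound on an exposure difference.

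**Figure D2:**
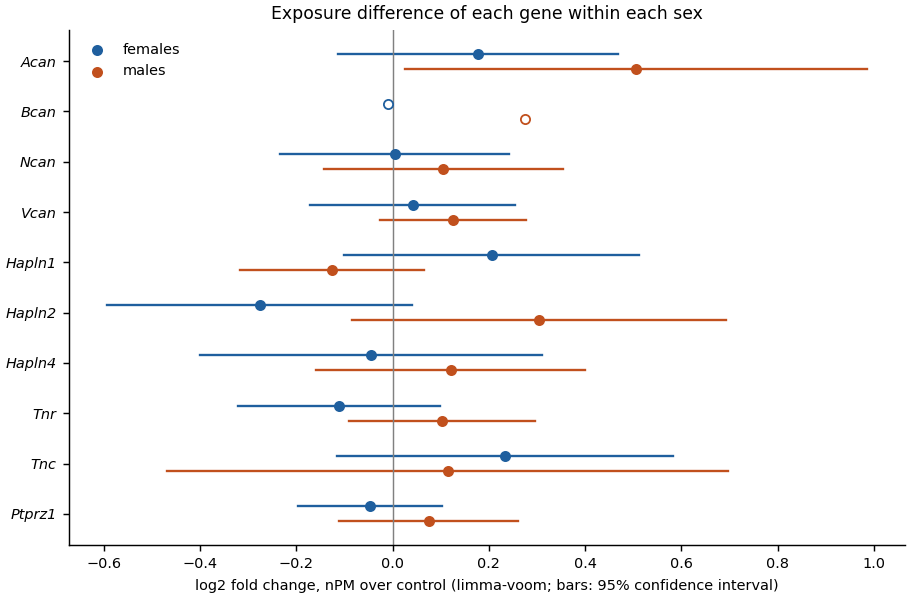
Log2 fold change of nPM over control mice for each gene (horizontal axis), in females (blue) and males (orange), from limma-voom; bars are 95% confidence intervals, and the open circles of Bcan carry none because exposure results chose that gene. The interval of Acan in males lies above 0, at 0.03 to 0.98, and those of Hapln2 point in opposite directions in the sexes while each includes 0.

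The genes that build, trim and read the same matrix were taken as 5 lists of 72 genes, of which 69 were tested. These were enzymes of the chondroitin sulfate chain, hyaluronan enzymes, other matrix proteins, proteases with their inhibitors, and receptors. In each exposure comparison 0 of 69 passed p under 0.005 by limma-voom. At an unadjusted p under 0.05 there were 2 higher and 2 lower in both sexes, none in females, 1 higher and 3 lower in males, and none for the interaction. That is 5.8% of the list in both sexes, against 2.1% of all genes tested, and 5.8% in males, against 4.28%. In both sexes the lower ones were Timp2, an inhibitor of matrix metalloproteinases (log2 fold change -0.33), and Hapln3, another link protein gene (-0.38). The higher ones were Chst3, a chondroitin 6-O-sulfotransferase (0.30), and Mmp14, a membrane-bound metalloproteinase (0.19). In males they were Chst3 (0.47), Timp2 (-0.38), Cemip2, a hyaluronidase (-0.22), and Crtac1, a matrix protein of cartilage and brain (-0.48). The limma-voom adjusted p was 0.9998 for each of these in both sexes and 0.963 for each in males.

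Between the sexes, which the study treated as a covariate or a stratum, 5 of the 10 members passed p under 0.005 by limma-voom with exposure as a covariate, where 31.1% of all genes passed. Of these, 4 were lower in males (17.1% of all genes) and 1 was higher (13.9%). At an adjusted p under 0.05 there were 6 of 10, against 40.4% of all genes. The median log2 fold change of the 10 members was -0.21, against 0.02 over all genes tested. edgeR and DESeq2 each gave 6 members at p under 0.005, Tnc being added to the 5.

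Acan showed the largest difference of the members. Its mean was 1.74 RPKM in females and 1.16 RPKM in males, a log2 fold change of -0.59 (SE 0.13, limma-voom p = 0.000247, adjusted p = 0.0015, exact permutation p = 0.000819). Within controls, Ct_M3 reached into the female range, and within nPM mice, nPM_M5 did, with exact permutation p = 0.0159 in controls and p = 0.0317 in nPM mice. The smallest p that 5 libraries against 5 allow is 0.00794.

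Tnr was lower in males by 0.30 on the log2 scale (SE 0.07, limma-voom p = 0.000255, adjusted p = 0.00154, exact permutation p = 0.000787). In RPKM it was at 18.8, 23.4, 25.3, 22.5 and 25.8 in control females and at 14.8, 17.0, 17.7, 14.5 and 18.5 in control males. In nPM mice it was at 21.1, 20.2, 22.3, 20.2 and 20.5 RPKM in females and at 17.1, 16.1, 19.0, 18.6 and 20.1 RPKM in males. The sexes did not overlap in RPKM in either exposure group, but the nearest libraries were close, at 18.8 (Ct_F1) and 18.5 (Ct_M5) in controls and 20.2 (nPM_F2) and 20.1 (nPM_M5) in nPM mice. With TMM scaling they overlapped in both, since Ct_F1 (17.8) lay below Ct_M3 (18.5) and Ct_M5 (19.1), and nPM_F5 (19.3) below nPM_M5 (19.9). The exact permutation p on the TMM-normalized log2 scale was 0.0238 in each.

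Ncan and Vcan were lower in males by 0.28 (SE 0.08, limma-voom p = 0.00262, exact permutation p = 0.0057) and 0.21 (SE 0.06, limma-voom p = 0.00136, exact permutation p = 0.00145). Ncan was at 27.8, 30.4, 25.1, 28.9 and 29.4 RPKM in control females and at 18.8, 21.1, 24.9, 20.2 and 22.4 RPKM in control males. Every control female was above every control male in RPKM, by 25.1 against 24.9 at the nearest, but with TMM scaling Ct_F3 (24.5) lay below Ct_M3 (25.9). In nPM mice the sexes overlapped for Ncan, with 21.2 to 34.9 RPKM in females and 18.9 to 27.9 RPKM in males. Vcan was at 3.62 to 4.63 RPKM in control females and 3.05 to 3.65 RPKM in control males, and at 4.09 to 4.71 and 3.44 to 4.03 RPKM in nPM females and males. With TMM scaling the sexes overlapped for Vcan in nPM mice too, nPM_F5 (3.85) lying below nPM_M2 (4.03). The Ncan call was lost, at p up to 0.00618, when any of Ct_F2, Ct_F4, Ct_F5, Ct_M1, Ct_M2, Ct_M4, nPM_F3 or nPM_M2 was left out, with values from -0.27 to -0.24.

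Hapln1 was the one member that passed p under 0.005 with a higher level in males, by 0.30 on the log2 scale (SE 0.09, limma-voom p = 0.00274, adjusted p = 0.00999, exact permutation p = 0.00693). It was at 4.98, 5.54, 5.30, 7.03 and 5.20 RPKM in control females and at 8.15, 7.89, 6.52, 6.94 and 7.37 RPKM in control males. Only Ct_F4 among control females lay within the range of the males. In nPM mice it was at 5.16 to 8.14 RPKM in females and 6.22 to 7.82 RPKM in males, and these overlapped (exact permutation p = 0.349). The call was lost without any of Ct_F1, Ct_F2, Ct_F3, Ct_F5, Ct_M1, Ct_M2, Ct_M5, nPM_F1, nPM_F5 or nPM_M3, with values from 0.27 to 0.30 and p up to 0.00921.

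Tnc was higher in males by 0.49 (SE 0.17), with limma-voom p = 0.00836, adjusted p = 0.0244 and exact permutation p = 0.00951. Its spread was wide, 0.675 to 1.89 RPKM over the males and 0.535 to 1.01 RPKM over the females, and it passed 0.005 without Ct_M3 (0.55) or nPM_M2 (0.57). Bcan had a log2 fold change of -0.25 between the sexes (SE 0.10, limma-voom p = 0.0218, adjusted p = 0.0531, exact permutation p = 0.0333), which was -0.35 and past 0.005 without nPM_F4. Ptprz1 had -0.01 (95% interval -0.12 to 0.10), Hapln4 -0.12 (-0.35 to 0.10) and Hapln2 -0.21 (-0.49 to 0.07). With 1 library left out at a time, the number of members past 0.005 was between 3 and 6, and it was 3 without Ct_F2, Ct_F5, Ct_M1 or Ct_M2.

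The libraries of the sexes also differed in composition. A length score was taken like the GC score, as the longest 20% minus the shortest 20% of genes above 3 log2 CPM. It was 0.02 to 0.38 in females and -0.28 to 0.00 in males, with no overlap. Over all genes tested, the median log2 fold change of males over females was -0.06 in the longest 20% and 0.05 in the shortest 20%. Of the members, Acan, Ncan, Vcan, Tnr, Tnc and Ptprz1 belong to the longest 20% of all genes tested. Among them Tnc was higher in males and Ptprz1 was at -0.01. With the length score as a covariate, 1 of the 10 members passed p under 0.005, namely Bcan at -0.51, and 1496 genes passed in place of 6147. In that fit (n = 10 per sex) Acan had a value of -0.67 (limma-voom p = 0.00813) and Ncan of -0.37 (p = 0.0151), whereas Tnr was at -0.11 (p = 0.331) and Vcan at -0.06 (p = 0.550). With the GC score as a covariate 3 members passed, Acan, Vcan and Tnr, and Bcan was at -0.10. Both covariates were added after the data had been seen. Sex and the length score cannot be told apart in these libraries.

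Markers of other cells were compared between the sexes as well. The choroid plexus list had a median of 4915 CPM in control males (265 to 12449) and 700 CPM in control females (284 to 1006). In nPM mice the medians were 1606 CPM in males (378 to 9355) and 341 CPM in females (282 to 14146). The ranges overlapped in both exposure groups. With the mean log2 CPM of the choroid plexus list, rather than its sum, as a covariate, Ncan was at -0.24 and no longer passed 0.005. Microglial markers summed to 319 to 378 CPM in control males and 257 to 311 CPM in control females, and to 341 to 375 CPM in nPM males and 247 to 379 CPM in nPM females, which overlapped. Endothelial markers, led by Slco1a4 and Flt1, summed to 184 to 236 CPM in control males and 220 to 253 CPM in control females, and to 184 to 231 and 242 to 318 CPM in nPM males and females, with no overlap in nPM mice. Markers of immature neurons, led by Dpysl3 and Sox11, had 143 to 189 CPM in control males and 120 to 149 CPM in control females, and 137 to 192 and 122 to 133 CPM in nPM males and females. Interneuron markers had medians of 1061 CPM in control males and 1080 CPM in control females, and of 1042 and 902 CPM in nPM males and females. Markers of field CA2 had medians of 147 and 127 CPM in control males and females, and of 177 and 133 CPM in nPM males and females. For the interneuron and CA2 lists the ranges of the sexes overlapped in controls and in nPM mice. Except for the choroid plexus level, the part of these lists in the differences between the sexes was not tested.

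**Figure D3:**
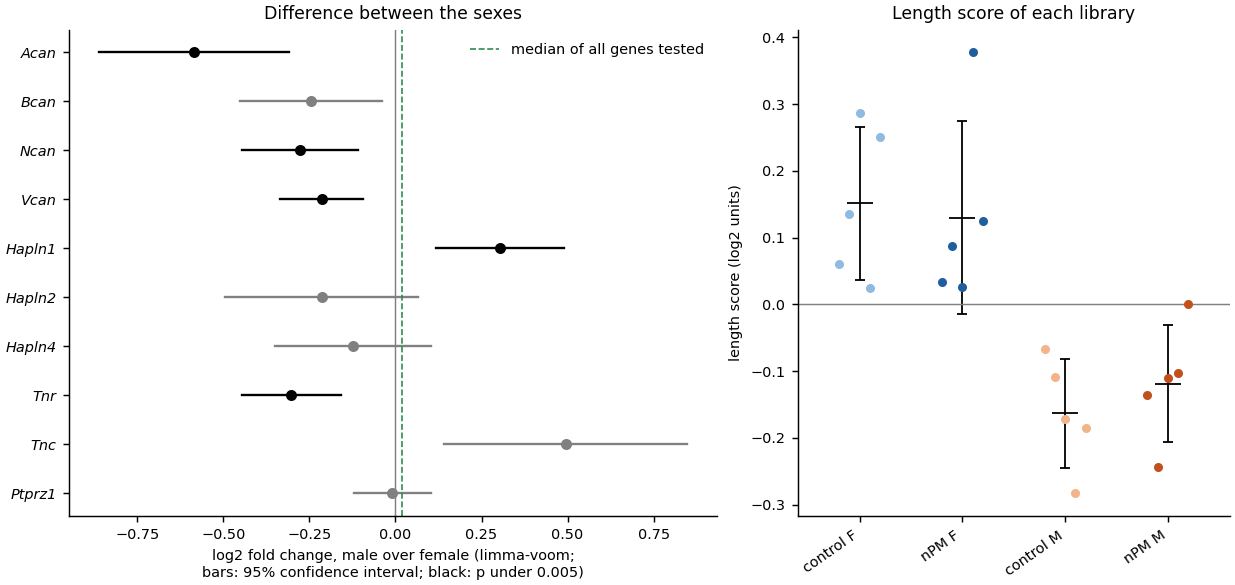
Left, log2 fold change of males over females for each gene (horizontal axis) from limma-voom with 95% confidence intervals; black marks p under 0.005, grey the rest, and the dashed line is the median of all genes tested (0.02). Right, the length score of each library in log2 units, with mean and SD of the 5 libraries of a group: all females lie at 0.02 or above, and all males at 0.00 or below.

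Of the pathway genes, 8 of 69 were higher and 7 lower in males at p under 0.005 by limma-voom, together 21.7% against 31.1% of all genes. The smallest p belonged to Cntn1, the adhesion protein contactin-1, which was higher by 0.33 (limma-voom adjusted p = 0.00017). Papss1, Csgalnact2 and Fam20b, enzymes that serve the making of glycosaminoglycan chains, were higher by 0.22, 0.27 and 0.20. Slc35d1, a carrier of nucleotide sugars into the Golgi and endoplasmic reticulum, was lower (-0.33), as were the protease Adamts20 (-0.51), fibronectin Fn1 (-0.61) and tenascin-X Tnxb (-0.72). Fn1 and Tnxb are also known from meningeal and vascular cells, and the meningeal fibroblast markers, led by Igf2 and Dcn, summed to 58 to 162 CPM in control females and 46 to 309 CPM in control males. Endothelial markers were higher in every nPM female than in every nPM male, at 242 to 318 against 184 to 231 CPM, and overlapped in controls. The part of both lists in these differences was not tested.

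Whether the members vary together was asked within groups, from log2 CPM after the mean of each group was subtracted. Of 45 pairs, 1 passed a Benjamini-Hochberg adjusted p under 0.05. This was Ncan with Hapln4, at Pearson r = 0.86 over 20 libraries (permutation p = 2e-05 from 100000 permutations within groups, adjusted p = 0.0009) and Spearman rho = 0.85 (permutation p = 4e-05, adjusted p = 0.0018). Without the 2 libraries farthest from the median of Ncan, nPM_F4 and nPM_M2, r was 0.82, and with the GC score removed it was 0.76 (adjusted p = 0.0036, permutation test). Libraries share depth and base composition across genes, and both genes are rich in G and C, with 55.1% for Ncan and 58.6% for Hapln4.

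The next pairs by permutation p did not pass the adjustment. They were Hapln2 with Tnc (r = -0.61), Acan with Hapln4 (r = 0.48), Tnc with Ptprz1 (r = 0.55), Acan with Ncan (r = 0.45) and Bcan with Ncan (r = 0.56), each with an adjusted permutation p of 0.211. Without the 2 libraries farthest from the median of the first gene named, r was weaker in each of these pairs. It was -0.39 for Hapln2 with Tnc, 0.33 for Acan with Hapln4, 0.38 for Tnc with Ptprz1 and 0.30 for Acan with Ncan. For Bcan with Ncan, r was 0.21 without nPM_F4 and nPM_F3, so that relation rests on these libraries.

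**Figure D4:**
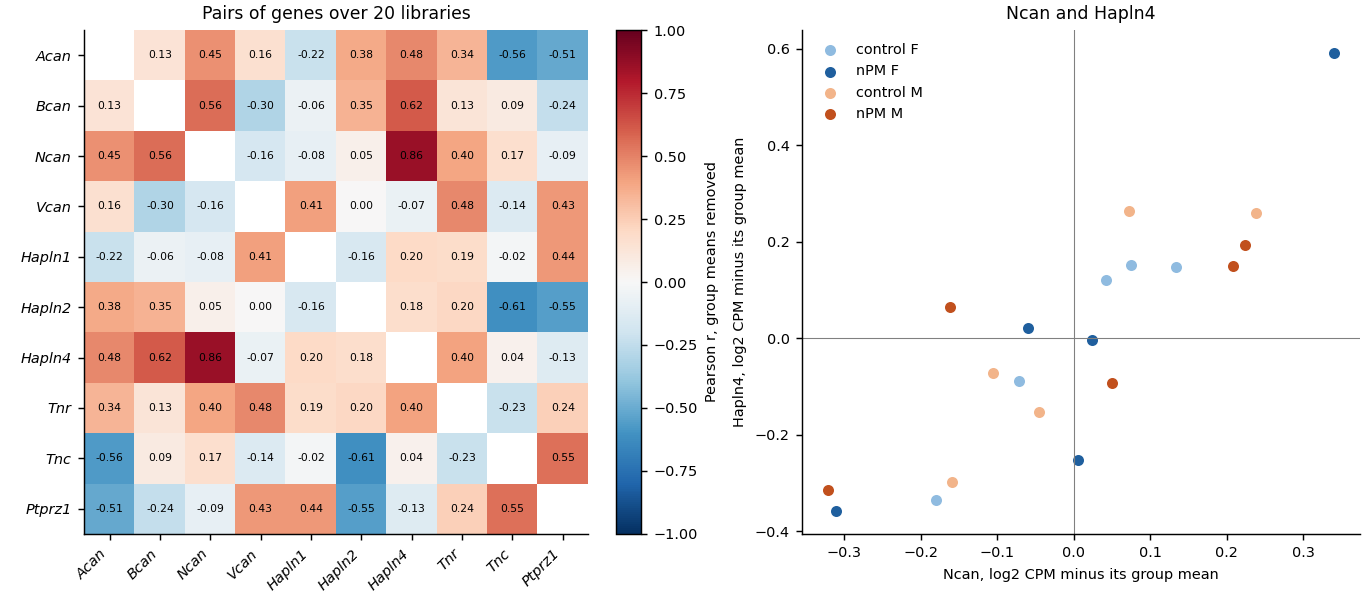
Left, Pearson r of each of the 45 pairs of genes over 20 libraries after group means were removed, coloured from -1 (blue) to 1 (red). Right, Hapln4 against Ncan in log2 CPM minus the group mean, 1 point a library coloured by group; the points follow a rising line (r = 0.86), with an nPM female at the upper end and an nPM female and an nPM male at the lower end.

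In the deposited coordinates (mm10) each lectican lies beside a link protein gene. Ncan (chr8:70093085-70120873, minus strand) and Hapln4 (chr8:70083457-70090862, plus strand) end 2222 bases apart. Bcan (chr3:87987531-88000230) and Hapln2 (chr3:88021750-88027583) are both on the minus strand and 21519 bases apart. Vcan (chr13:89655312-89742509, minus strand) and Hapln1 (chr13:89540636-89611832, plus strand) are 43479 bases apart, and Acan (chr7:79053483-79115099, plus strand) ends 2 bases from Hapln3. The other pairs of neighbours among the members had r = 0.35 for Bcan with Hapln2 and r = 0.41 for Vcan with Hapln1. Tnr lies at chr1:159523769-159931729, Tnc at chr4:63959785-64047015 and Ptprz1 at chr6:22875502-23052916. The strand setting of the counting is not given in the sources used here, so reads of Acan and Hapln3 near their shared end, and of genes that overlap Tnr, Vcan, Hapln1, Tnc or Ncan, could have been assigned to the other gene. The overlapping genes had at most 308 counts in a library for Tnr, against at least 4968 for Tnr itself, and at most 67 for Vcan, 31 for Hapln1, 9 for Tnc and 2 for Ncan.

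Beyond the list, the gene most like each member was taken as the one with the highest Pearson r over the 20 libraries after group means were removed, among all genes tested. These values were chosen for being the highest and carry no test. For Bcan the nearest were Aatk (r = 0.96), Llgl1 (0.93) and Gpr137 (0.92), and for Ncan Epb41l1 (0.94) and Rnf157 (0.93). With the GC score removed, Aatk was at 0.85 with Bcan, and Llgl1 and Gpr137 were at 0.67 and 0.66. For Hapln4 the nearest of all other genes tested was Ncan itself (0.86), followed by B4galnt1 and Arhgef11 (both 0.85). Hapln2 was closest to Uxt (0.85), Arhgef10 (0.84) and Mobp (0.83), the last of which is a myelin gene. Acan was closest to Arhgef2 (0.87), Vcan to Arhgef28 (0.89) and Hapln1 to Asb1 (0.86). Tnr was closest to Rnf165 (0.89), Tnc to Agtr2 (0.85) and Ptprz1 to Sgcd (0.88).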

How the data were processed

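The deposited values are raw counts of reads per gene. Per the submitters' processing notes and the study's methods, the authors depleted ribosomal RNA, sequenced on an Illumina HiSeq, checked and trimmed reads with FastQC and Trimmomatic, aligned them to mm10 (GRCm38) with HISAT2 and counted them with featureCounts 1.5.0-p3 on Gencode M11, without normalization. The authors also deposited gene lengths, positions and the mean RPKM of each gene, which the RPKM computed here from counts, total counts and length matched within 5.09e-11.

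Genes were kept by filterByExpr (minimum count 10, minimum total 15), TMM factors were computed with edgeR 4.0.16 on the kept genes of the libraries in each fit, and limma-voom (limma 3.58.1, R 4.3.3) gave log2 fold changes and p-values, with the study's threshold of 0.005 and Benjamini-Hochberg adjustment over 19797 genes. Exposure was fitted in both sexes with sex as a covariate, in females, in males and as an interaction, and sex with exposure as a covariate. Permutation tests were two-sided, on log2 CPM with an offset of 0.5 counts. Scripts were tested on simulated data. Alternatives were edgeR's quasi-likelihood test, DESeq2 1.42.0, other normalization, no filter, sample weights, covariates, and leaving out each library. RPKM, the GC and length scores and the marker sums entered no main test.

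The members and all gene lists were chosen with earlier results of these data known. Named genes were the 10 members, at most 8 pathway genes per comparison by smallest unadjusted p under 0.05, the 3 most correlated genes per member, and the 2 most abundant genes of a marker list. A gene of the oligodendrocyte list, left out of its sum, and a gene correlated with Ncan are not reported here. Of the 72 pathway genes, Chst13, Mmp3 and Timp1 were below the filter, and 71 genes had no GC content in Gencode M21. The 40 pairs of libraries within groups differed by 14.1 to 76.6 times counting noise, so none was a duplicate. Precision is limited by the 5 libraries per group more than by the depth of 19092067 to 38663408 counts.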

Additional observations from a re-analysis of the deposited data

Results flagged for a closer look

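Hapln2 stood out in 2 ways. In control females, library Ct_F1 had a Hapln2 level of 3.54 log2 CPM, or 5.16 RPKM, whereas the other 4 control females were within 4.13 to 4.17 log2 CPM, or 7.49 to 7.67 RPKM. Its gap to the nearest library was 0.946 of the range of the group, above the limit of 0.71 for 5 libraries. Of 40 groups examined (10 genes in 4 groups) it was the 1 found, and chance gives about 1 in 20.

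The exposure effect on Hapln2 also differed between the sexes at an unadjusted p under 0.05, by 0.596 on the log2 scale (male minus female, limma-voom p = 0.0227, adjusted p = 0.987, exact permutation p = 0.0168). Over the alternatives that keep all libraries the difference was between 0.54 and 0.70, and over those that leave out 1 library it was between 0.46 and 0.71. The library Ct_F1 lowers this difference, which was 0.71 without it, and the library Ct_M1 raises it, to 0.596 from 0.46 without it. No cause of either was tested.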

How the results depend on the processing

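Counts of members past p under 0.005 were 0 of 9 for exposure in every alternative, except 1 (Hapln2, 0.45) in males with the length score, 1 for the interaction (0.70) with choroid plexus level, and 1 in females and 1 for the interaction without Ct_F1, so the counts over single libraries left out were 0 to 0 in both sexes, 0 to 1 in females, 0 to 0 in males and 0 to 1 for the interaction. For sex the count was 5 of 10, 6 with edgeR, DESeq2, sample weights and the replicate block, 3 with the GC score, 1 with the length score, and 3 to 6 with 1 library left out. The cause of these shifts was not tested.

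Signs turned only for differences that had not passed the threshold or were not tested. In both sexes, Hapln2 (0.01) was at -0.00172 with edgeR, -0.00125 with DESeq2, -0.00667 with choroid plexus level and -0.0146 with the GC score, Ptprz1 at -0.000225 with the length score, and Tnr at 0.000314 with age. In females Ncan was at -9.03e-05 with RLE normalization, -0.0183 with the length score and -0.0107 in 1 fit of the 4 groups. Bcan in females, given without a test (-0.01), was at 0.0284 with edgeR, 0.0255 with DESeq2, 0.00415 with no filter, 0.0304 with the GC score and 0.116 with sample weights. Tnc in males was at -0.0478 with the length score. For sex, Ptprz1 was at 0.0271 with choroid plexus level and 0.159 with the length score, and Hapln4 at 0.0170 with the GC score. With 1 library left out, signs turned within these ranges: in both sexes Hapln1 (-0.0346 to 0.0510), Hapln2 (-0.0658 to 0.0523), Hapln4 (-0.0307 to 0.0790), Tnr (-0.0477 to 0.0168) and Ptprz1 (-0.0323 to 0.0297); in females Ncan (-0.0828 to 0.0813), Vcan (-0.00881 to 0.0809) and Hapln4 (-0.200 to 0.0341); in males Tnc (-0.107 to 0.261) and Ptprz1 (-0.00334 to 0.132); for the interaction Tnc (-0.328 to 0.0516); and for sex Ptprz1 (-0.0326 to 0.0302).

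Genes past p under 0.005 over the whole table moved by more than 1.5 times from 28 in both sexes to 43 (DESeq2), 71 (no filter), 53 (sample weights) and 44 (GC score), from 18 in females to 55, 87, 44 and 39 in the same settings and 46 (length score), from 41 in males to 113 (DESeq2), 130 (no filter) and 70 (choroid plexus level), and from 43 for the interaction to 66 (edgeR), 89 (DESeq2), 149 (no filter) and 85 (length score). With 1 library left out they ranged over 17 to 47, 10 to 48, 23 to 78 and 24 to 77. The Ncan and Hapln4 pair kept its call with RLE normalization and with the GC or the length score removed (r from 0.76 to 0.86), and the order of levels held with TMM scaling.

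Replicate numbers are shared between groups, but same-numbered libraries did not deviate together: r was above 0.1 in 11 of 30 such pairs (-0.56 to 0.40), and 6 of 20 libraries correlated best with their own number. With the replicate number as a block the counts of members were 0 in each exposure comparison, and for sex Tnc came to 0.54 and was the one member added to the 5.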
